A study of Mus musculus with 10 samples.

Results

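The genes of 10 feedback inhibitors were examined for binding of p65 in RAW264.7 macrophages: the cytokine signaling suppressors Socs1, Socs3 and Cish, the dual-specificity phosphatases Dusp1, Dusp2, Dusp4, Dusp5 and Dusp16, and the mRNA-decay factors Zfp36 and Zc3h12a. They were chosen by name, as 10 of the 21887 protein-coding genes of the annotation, and each was given the peaks that overlapped its body or the 10 kb on either side. The 9 peak lists held 536143 peaks in all, of which 439 fell in these windows and merged into 93 of 235070 regions. RAW264.7 is an established mouse macrophage line from a tumour induced by Abelson murine leukemia virus, and the labels name no engineered allele. Cells were kept for 12 h in the solvent DMSO, in DMSO with lipopolysaccharide (LPS, the outer membrane endotoxin of Gram-negative bacteria), or in LPS with skatole, an indole compound that gut bacteria make from tryptophan, and each group had 3 libraries of 200000 cells. Binding was read by CUT&Tag, in which a transposase tethered to an antibody cuts out the DNA around the bound protein for sequencing. The labels name p65 and the methods of the study name phosphorylated p65 as the antigen. A single library made without primary antibody was not analysed here. No label says that the 3 libraries of a group came from separate cultures, so every p-value below measures the spread between these libraries, which may be technical.

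Nuclear factor κB (NFκB), of which p65 is the main activating subunit, is switched on in macrophages by LPS. Among the genes it acts on are inhibitors that bring the response back down. SOCS proteins and CISH block cytokine receptors, Janus kinases and STAT factors, DUSP phosphatases remove the activating phosphates from mitogen-activated protein kinases, and ZFP36 (tristetraprolin) and ZC3H12A (regnase-1) lead to the destruction of cytokine mRNAs. The question put to the data was where p65 peaks lay at these genes, and how their presence, number, rank and summit position differed over DMSO, LPS and LPS+Skatole.

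The annotation used was RefSeq on GRCm38.p6, and the submitters' notes give the matching build mm10. Start sites were given for 9 of the 10 genes, and Dusp4 has no entry. For Socs3 and Dusp16 the start site used lies inside the annotated span of the gene, so positions just upstream of it are within the gene. Stretches of the promoters are shown first, for the genes at which the start-site peak appeared with LPS (Cish and Socs3), for those at which it was present in all 9 libraries at a steady position (Dusp2 and Dusp5), and for Zfp36 and Dusp1, whose windows hold one of the motifs searched. Each line runs 5′ to 3′ on the strand of the gene, an upstream stretch being the 250 bases before the start site and a site 30 bases around the match. Capitals mark a STAT-type match TTCNNNGAA or, in Dusp1, the cyclic AMP response element TGACGTCA.
Cish upstream, chr9:107296409-107296658, plus strand: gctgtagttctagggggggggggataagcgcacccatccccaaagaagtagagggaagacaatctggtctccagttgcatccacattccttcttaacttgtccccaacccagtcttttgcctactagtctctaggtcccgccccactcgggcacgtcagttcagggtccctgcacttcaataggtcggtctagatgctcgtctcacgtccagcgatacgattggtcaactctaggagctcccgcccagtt
Cish site, chr9:107296654-107296683, plus strand: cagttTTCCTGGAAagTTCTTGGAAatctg
Socs3 site, chr11:117969502-117969531, minus strand: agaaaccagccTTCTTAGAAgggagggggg
Zfp36 upstream, chr7:28379229-28379478, minus strand: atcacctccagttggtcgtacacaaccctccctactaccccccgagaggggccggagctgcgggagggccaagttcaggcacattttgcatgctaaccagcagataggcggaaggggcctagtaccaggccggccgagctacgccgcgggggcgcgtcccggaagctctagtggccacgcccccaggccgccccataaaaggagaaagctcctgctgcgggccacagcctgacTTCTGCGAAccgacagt
Dusp1 upstream, chr17:26508473-26508722, minus strand: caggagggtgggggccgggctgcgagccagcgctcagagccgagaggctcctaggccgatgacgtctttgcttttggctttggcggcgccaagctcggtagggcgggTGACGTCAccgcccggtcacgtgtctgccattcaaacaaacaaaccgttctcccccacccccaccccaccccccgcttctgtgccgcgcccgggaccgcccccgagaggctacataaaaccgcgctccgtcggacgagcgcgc
Dusp2 upstream, chr2:127335909-127336158, plus strand: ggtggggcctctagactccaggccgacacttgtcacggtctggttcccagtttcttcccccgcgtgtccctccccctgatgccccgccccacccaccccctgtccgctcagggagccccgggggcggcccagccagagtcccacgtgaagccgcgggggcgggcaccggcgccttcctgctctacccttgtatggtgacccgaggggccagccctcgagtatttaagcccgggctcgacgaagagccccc
Dusp5 upstream, chr19:53528895-53529144, plus strand: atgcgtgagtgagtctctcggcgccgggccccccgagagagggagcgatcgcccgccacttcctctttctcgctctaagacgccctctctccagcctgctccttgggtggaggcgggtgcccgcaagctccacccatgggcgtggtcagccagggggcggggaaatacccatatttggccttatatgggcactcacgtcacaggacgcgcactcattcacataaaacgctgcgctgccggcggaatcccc
The search covered both strands of 300 bases per gene, from 250 before to 50 after the start. TTCNNNGAA was found in 3 of the 9 windows, at −154 to −146 in Socs3, at 0 to 8 and 11 to 19 in Cish (0 is the start base) and at −17 to −9 in Zfp36, against 8.30% of all 32851 promoter windows of the table. TGACGTCA was found in 1 window, at −143 to −136 in Dusp1, against 1.79% of all. The κB consensus, held by 8.46% of all windows, and the AP-1 site TGANTCA, held by 7.81%, were in 0 of the 9 windows. These are matches of letters in a short window and say nothing of sites outside it.

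Depth, read by the genome background, was lower in DMSO than in the other groups, whose ranges overlapped. List length differed between all groups, and both touch the counts below. The lists held 37551 to 43450 peaks for DMSO, 55637 to 63498 for LPS and 78136 to 80153 for LPS+Skatole. The genome background, the fragments expected at any position of a library, was 1.09 to 1.40 for DMSO, 2.23 to 2.34 for LPS and 2.26 to 2.39 for LPS+Skatole. The 10 windows held 35, 37 and 31 peaks under DMSO, 58, 49 and 54 under LPS and 54, 60 and 61 under LPS+Skatole. Per 10000 peaks of the list these were 9.32, 8.52 and 7.57, then 10.4, 8.43 and 8.50, then 6.87, 7.68 and 7.61, so once list length was taken into account the LPS libraries overlapped those of DMSO, while every LPS+Skatole library lay below every LPS library. The mean over all protein-coding genes per 10000 peaks was likewise lower with skatole, at 0.521 to 0.528 peaks a gene against 0.563 to 0.575 in LPS and 0.584 to 0.595 in DMSO. Of 10 macrophage marker genes, 9 had a peak in all 9 lists, and 1 of 3 T cell and 1 of 3 B cell markers did too. A peak does not measure expression, and these marks do not check the cell type.

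Every gene had at least 1 peak in all 9 libraries except Cish, which had none in DMSO replicate 3. Of the 93 regions, 18 had a peak in all 9 libraries and 42 in 1 library alone, and Dusp16, whose body is by far the longest, held 13 of those 42. All 3 LPS libraries had more peaks than all 3 DMSO libraries at 3 genes, Cish, Dusp2 and Dusp16, and fewer at 0 of the 10. Among all 19505 protein-coding genes with a peak, 12.2% were higher in this sense and 0.364% lower. LPS+Skatole against LPS gave 0 higher and 0 lower, with backgrounds of 9.10% and 0.774%. LPS+Skatole against DMSO gave 7 higher (Socs3, Cish, Dusp1, Dusp2, Dusp4, Dusp5 and Dusp16) and 0 lower, with backgrounds of 25.4% and 0.174%. Both comparisons with DMSO share the DMSO libraries. The lists were also cut to nearly equal length, at 37551 to 39291 peaks, called lists of equal length below. LPS against DMSO then gave 2 higher (Cish and Dusp2), with 3.13% of all genes higher in that setting. LPS+Skatole against DMSO gave 1 higher (Dusp2), with 3.59%, and LPS+Skatole against LPS gave 1 lower (Socs1), with 2.32%. With 3 libraries against 3 the exact two-sided permutation test cannot go below p = 0.1.

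**Figure D1:**
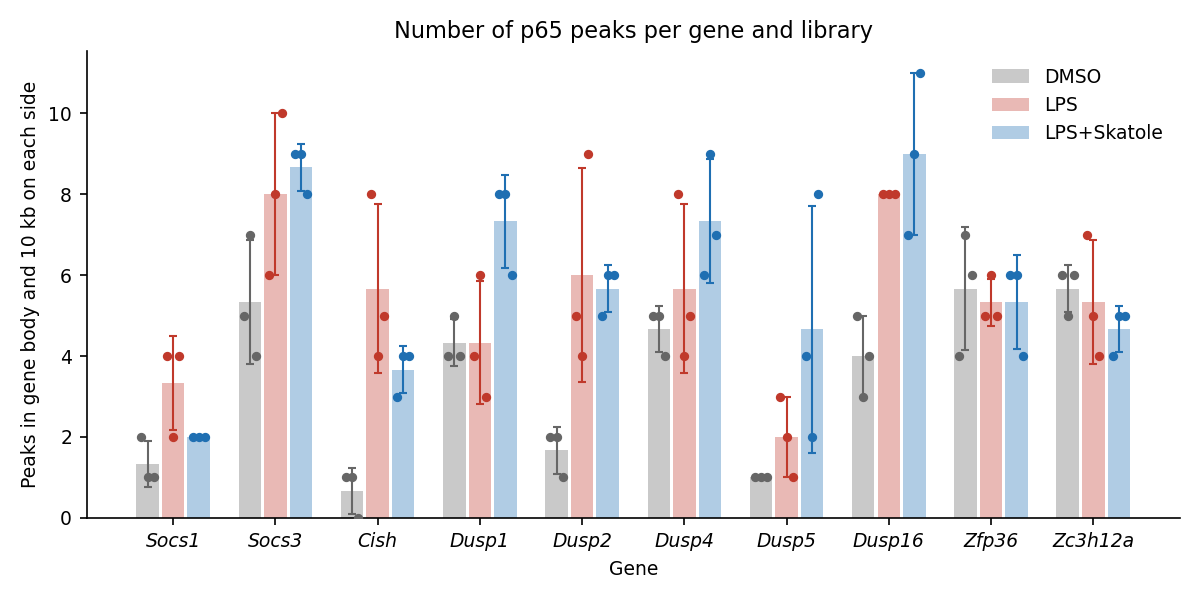
Number of p65 peaks in the body of each gene and 10 kb on either side (vertical axis, peaks) by gene, with bars for the group mean, error bars for the SD and a point for each of 3 libraries. Cish has 0 or 1 peaks in the DMSO libraries and 3 to 8 in the others, while the groups overlap at Zfp36 and Zc3h12a.

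The suppressors of cytokine signaling are taken first. Socs1, which binds and inhibits Janus kinases, had 2, 1 and 1 peaks under DMSO, 4, 2 and 4 under LPS and 2 in each library with skatole. One region over its start site (chr16:10784322-10787040) had a peak in all 9. Its summit count, the number of fragments at the highest point, was 33, 55 and 51 in DMSO, 101, 89 and 119 in LPS and 75, 105 and 114 in LPS+Skatole. In multiples of the genome background these were 30.3, 39.3 and 37.5, then 44.0, 40.0 and 50.8, then 32.1, 46.4 and 47.6, so every LPS library lay above every DMSO library, by a narrow margin, and the LPS+Skatole libraries overlapped both. The percentile of this peak within its own list, where 100 is the strongest by p, averaged 90.2 ± 3.68 (SD, n = 3) under DMSO, 97.6 ± 0.773 under LPS and 96.1 ± 2.40 with skatole added. A percentile rises with the length of the list for a peak of the same rank. By rank, with 1 the strongest, the peak stood at 5169, 3004 and 3420 in DMSO, 1286, 1847 and 1052 in LPS and 5225, 2141 and 1858 in LPS+Skatole. LPS and DMSO did not overlap by either measure, whereas LPS+Skatole and DMSO overlapped by rank.

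A weaker Socs1 region 3′ of the gene (chr16:10781983-10783627) had a peak in all 3 LPS libraries, with 20, 21 and 25 counts, and otherwise in DMSO replicate 1 with 10 counts and LPS+Skatole replicate 1 with 13 counts. For a library without a peak, the highest count that would still have been left out follows from the threshold and the background, and it was 8 for DMSO replicates 2 and 3 and 10 for LPS+Skatole replicates 2 and 3. In multiples of the genome background the LPS libraries stood at 8.72, 9.44 and 10.7, DMSO replicate 1 at 9.18 and LPS+Skatole replicate 1 at 5.56. The 2 other LPS+Skatole libraries could not have exceeded 4.42 and 4.18, so all 3 libraries with skatole lay below all 3 with LPS alone here. This region was singled out after its values were seen.

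Socs3, the suppressor that dampens signaling of the interleukin 6 receptor through STAT3, had 5, 7 and 4 peaks in DMSO, 6, 8 and 10 in LPS and 9, 9 and 8 in LPS+Skatole. Its start site (region chr11:117968996-117970097) had no peak in any DMSO library and a peak in all 6 others. The summits were at +67, +28 and +68 bp in LPS and at +28, +29 and +26 bp in LPS+Skatole. The summit counts were 133, 128 and 139 in LPS and 101, 105 and 123 in LPS+Skatole, on a raised local background of 22.2 to 23.1 times the genome background. In multiples of the genome background they were 58.0, 57.5 and 59.3 under LPS and 43.2, 46.4 and 51.4 with skatole added, with no overlap between these groups. The DMSO libraries could have held up to 48, 58 and 57 counts without a call, or 44.1, 41.5 and 41.9 multiples. All LPS libraries were therefore above any level open to DMSO, whereas LPS+Skatole replicate 1, at 43.2, was not.

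By rank, the Socs3 start-site peak stood at percentiles 67.5, 66.7 and 69.2 in the LPS lists and 26.2, 33.0 and 53.0 in the LPS+Skatole lists. In a limma fit of the 19799 regions that had a peak in all of these libraries, the median-centred log2 count of the Socs3 start site differed by −0.63 ± 0.20 (SE) with skatole (Benjamini-Hochberg adjusted p = 0.17). Scaled by the genome background instead, the difference was −0.31 ± 0.20 (adjusted p = 0.36). The difference did not pass the threshold in either form.

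Another Socs3 region, 5.2 to 5.6 kb upstream (chr11:117974085-117975170), was also absent from DMSO and present in the 6 others, with 29, 40 and 22 counts in LPS and 18, 28 and 28 in LPS+Skatole. At 9.39 to 18.0 and 7.69 to 12.4 multiples of the genome background, all 6 were above what DMSO could have held uncalled (5.72 to 6.42). A pair of regions 3′ of the gene had a peak in all 9 libraries. The farther one (chr11:117957138-117961267) had 27, 42 and 34 counts in DMSO, 90, 95 and 63 in LPS and 79, 76 and 111 in LPS+Skatole. It was the strongest Socs3 peak in every list, at percentile 83.5 ± 4.08 under DMSO, 95.2 ± 3.11 under LPS and 95.1 ± 2.11 with skatole added (SD, n = 3). By rank the LPS and DMSO lists overlapped, at 1810, 1529 and 5251 against 7335, 5123 and 7180.

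Cish, an inhibitor of signaling through STAT5, had 1, 1 and 0 peaks in DMSO, 8, 4 and 5 in LPS and 3, 4 and 4 in LPS+Skatole. Its means were 0.667 ± 0.577, 5.67 ± 2.08 and 3.67 ± 0.577 peaks (SD, n = 3). No Cish region had a peak in all 9 libraries. The one with a peak in the most libraries, 8 of 9 (chr9:107312268-107314115), lies across the 3′ edge of the window, with summits 16.0 to 17.3 kb from the start site. It stood at 21.1 and 9.57 multiples of the genome background in DMSO replicates 1 and 3 and at most 5.72 in replicate 2, at 22.7, 11.2 and 19.6 in LPS and at 12.4, 13.7 and 14.6 in LPS+Skatole, so the groups overlapped. The peak of DMSO replicate 3 lies wholly beyond the window and is not in the peak number. The median-centred limma difference of LPS+Skatole against LPS there was −0.65 ± 0.33 (adjusted p = 0.43). Scaled by the genome background it was −0.33 ± 0.33 (limma adjusted p = 0.58). The start-site region (chr9:107295476-107297023) had none in DMSO and a peak in all 6 others, with 65, 56 and 69 counts in LPS and 107, 88 and 99 in LPS+Skatole. In multiples of the genome background these were 28.3, 25.2 and 29.4 against 45.7, 38.9 and 41.3, and the DMSO libraries could have held up to 25.7, 23.6 and 24.3 without a call. LPS+Skatole was thus clear of the DMSO limits, while LPS replicate 2 was not above the limit of DMSO replicate 1. The summits lay at −61, −93 and −90 bp in LPS, within the promoter stretch printed above, and at −95, −433 and −449 bp in LPS+Skatole.

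At the Cish start site the order of LPS and LPS+Skatole was the opposite of that at Socs3. The percentiles were 41.8, 21.9 and 46.0 in the LPS lists and 78.3, 68.5 and 74.1 in the LPS+Skatole lists, without overlap. The limma difference of LPS+Skatole against LPS was +0.28 ± 0.24 (adjusted p = 0.67) when median-centred and +0.60 ± 0.24 (adjusted p = 0.14) on the genome-background scale, neither of which passed. On the latter scale the median over all 19799 regions was itself +0.27, so most regions stood higher with skatole. The share of all regions that separate as these start sites do, in multiples or percentiles, was not counted. The ratio of the Socs3 to the Cish start-site count within a library needs no scaling. It was 2.05, 2.29 and 2.01 under LPS and 0.944, 1.19 and 1.24 with skatole added. The groups did not overlap, and this pair of sites was chosen after the values were seen, so no test is given.

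**Figure D2:**
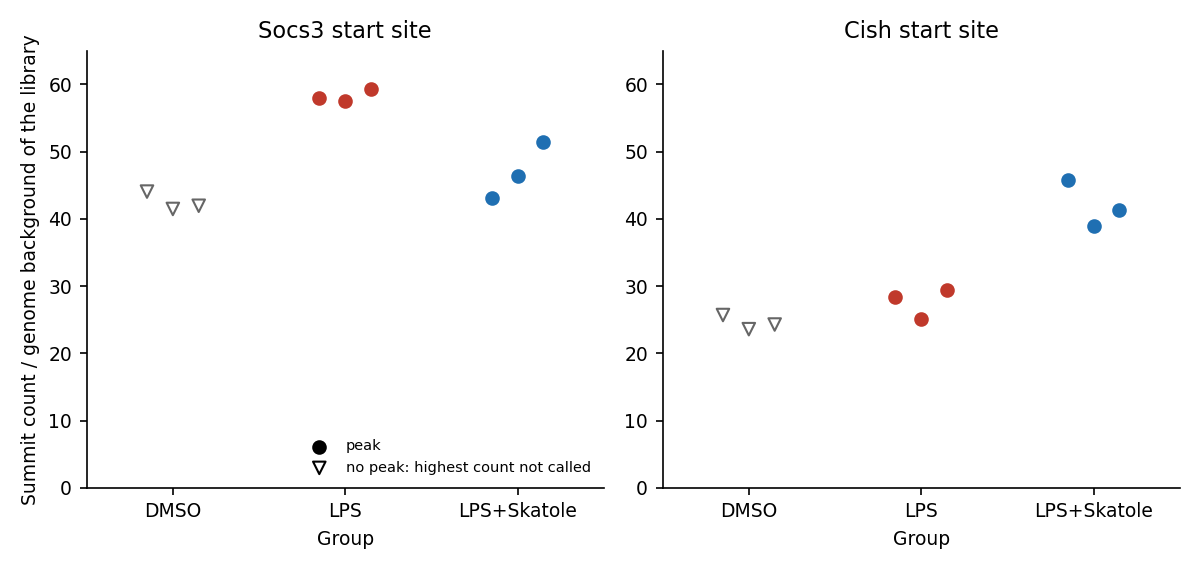
Summit count of the start-site peak divided by the genome background of the library (vertical axis, multiples) for Socs3 and Cish by group. Filled circles are peaks and open triangles mark, for DMSO libraries without a peak, the highest level that would not have been called. At Socs3 the LPS libraries (57.5 to 59.3) lie above LPS+Skatole (43.2 to 51.4), and at Cish LPS (25.2 to 29.4) lies below LPS+Skatole (38.9 to 45.7). On this scale the median log2 difference of LPS+Skatole against LPS over 19799 regions was +0.27.

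A pair of regions 3′ of Cish were present in all LPS and no DMSO libraries. One (chr9:107305806-107306576) reached 18.3, 12.1 and 11.1 multiples of the genome background in LPS, was present with skatole only in replicate 2 (13.7), and could have been at most 4.27 and 4.18 in LPS+Skatole replicates 1 and 3. The other (chr9:107307436-107309113) reached 5.23, 10.3 and 7.25 in LPS and 8.98 in LPS+Skatole replicate 1, the only library with skatole that had it. There up to 6.42, 5.72 and 5.89 could have gone uncalled in the DMSO libraries, and LPS replicate 1 was below each of these limits. Mapkapk3, the only other protein-coding gene in the Cish window, lies on the far side of the start site from both.

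Among the phosphatases, Dusp1, the early-induced phosphatase of p38 and JNK, had 4, 5 and 4 peaks in DMSO, 4, 6 and 3 in LPS and 8, 8 and 6 in LPS+Skatole. Its start-site peak was present in all 9 libraries with 78, 95 and 114 counts in DMSO, 175, 124 and 156 in LPS and 129, 238 and 156 in LPS+Skatole. Relative to the genome background the group means were 74.5 ± 8.36, 66.2 ± 10.3 and 75.2 ± 26.5 (SD, n = 3), and the groups overlapped. In LPS+Skatole replicate 1 the summit sat nearer the start, at −25 bp on a local background of 34.7 multiples, and the peak ranked only at percentile 12.1. A region over the neighbouring noncoding gene Gm34455 (chr17:26503417-26504679) was present in all LPS+Skatole libraries at 18.0, 33.2 and 23.8 multiples and in LPS replicate 2 at 13.0. It was absent from DMSO and from LPS replicates 1 and 3. The local background under its summits ran from 2.68 to 11.7 multiples between the libraries that had it, and at the higher value DMSO could have held up to 27.5 multiples without a call, so no separation in level can be read here.

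Dusp2, a nuclear phosphatase of ERK and p38 found mainly in immune cells, had 2, 2 and 1 peaks in DMSO, 5, 4 and 9 in LPS and 5, 6 and 6 in LPS+Skatole. The start-site peak had its summit between −206 and −64 bp in all 9 libraries, inside the printed stretch, at −154 or −155 bp in 6 of them. Its counts were 77, 132 and 125 in DMSO, 180, 175 and 221 in LPS and 221, 189 and 197 in LPS+Skatole, and relative to the genome background 85.7 ± 13.1, 83.8 ± 9.09 and 86.8 ± 6.69 (SD, n = 3). These heights overlapped fully. A region 2.8 to 3.1 kb upstream (chr2:127332336-127333510), over the noncoding gene Gm46762, had 44 and 44 counts in DMSO replicates 1 and 2 and none called in replicate 3, 86, 114 and 88 in LPS and 109, 149 and 159 in LPS+Skatole, or 31.5 to 40.4, 37.5 to 51.2 and 46.6 to 66.4 multiples. DMSO replicate 3 could have held up to 30.2 multiples uncalled at the median local background of this region, and up to 44.9 at the highest. A region in the Dusp2 body (chr2:127337523-127338468, +1.5 to +1.7 kb), was absent from DMSO and had 40 and 49 counts in LPS replicates 1 and 2 and 63, 57 and 70 in LPS+Skatole. At 26.9, 25.2 and 29.2 multiples the latter were above the levels open to DMSO at the highest local background seen there (15.7 to 17.4) and above LPS, at 17.4, 22.0 and at most 13.2. On this scale the median log2 difference of LPS+Skatole against LPS was +0.27 over the 19799 regions with a peak in all libraries of both groups. How many regions separated in this way was not counted, and this one was not tested.

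Dusp4, a nuclear phosphatase induced by ERK signaling, had 5, 5 and 4 peaks in DMSO, 8, 4 and 5 in LPS and 6, 9 and 7 in LPS+Skatole. Its main region (chr8:34803846-34809131), which reaches over one end of the gene, was present in all 9 libraries with 43, 54 and 75 counts in DMSO, 106, 91 and 81 in LPS and 102, 106 and 101 in LPS+Skatole. The percentile of the strongest Dusp4 peak was 92.1 ± 3.20, 95.7 ± 1.77 and 96.2 ± 0.851 in the same order, and the groups overlapped. With lists of equal length the mean peak number was lower in LPS+Skatole than in DMSO by a difference of −0.667, where it had been higher by 2.67 in the lists as deposited.

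Dusp5, a nuclear phosphatase specific to ERK, had a single peak in each DMSO library, 3, 2 and 1 in LPS and 4, 2 and 8 in LPS+Skatole. The peak common to all 9 libraries was at the start site, with summits from −156 to −51 bp in the printed stretch. Its counts were 42, 62 and 33 in DMSO, 70, 59 and 109 in LPS and 76, 84 and 67 in LPS+Skatole, and divided by the genome background they overlapped fully, from 24.3 to 46.5. A region 3′ of the gene (chr19:53543655-53545903) was at 34.6, 34.1 and 31.3 multiples in LPS+Skatole, at 21.8 and 12.6 in LPS replicates 1 and 2, and absent from LPS replicate 3 and from DMSO. Its local background ran from 4.71 to 14.8 multiples, and at the higher value up to 32.1 multiples could have gone uncalled in DMSO, close to the levels with skatole.

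Dusp16, a phosphatase that acts on JNK, had 5, 3 and 4 peaks in DMSO, 8 in each LPS library and 7, 9 and 11 in LPS+Skatole. The region over its start site (chr6:134790109-134793048) had peaks in all 9 libraries, with summits from −75 to +2076 bp. The best-ranked peak in it had 43, 40 and 37 counts in DMSO, 43, 51 and 69 in LPS and 44, 81 and 46 in LPS+Skatole. Relative to the genome background this peak stood at 39.5, 28.6 and 27.2 in DMSO, 18.7, 22.9 and 29.4 in LPS and 18.8, 35.8 and 19.2 in LPS+Skatole, so the groups overlapped. A region near the 3′ end of the gene (chr6:134715668-134717089) was gained, at 18.7, 21.6 and 9.81 multiples in LPS and 11.1, 15.0 and 6.68 in LPS+Skatole, where up to 6.44 to 7.34 could have gone uncalled in DMSO at the highest local background seen there. LPS+Skatole replicate 3 was not above that range. LPS+Skatole against LPS differed there by −0.92 ± 0.36 on the median-centred log2 scale (limma adjusted p = 0.28). On the genome-background scale it differed by −0.60 ± 0.36 (limma adjusted p = 0.34), and neither passed.

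**Figure D3:**
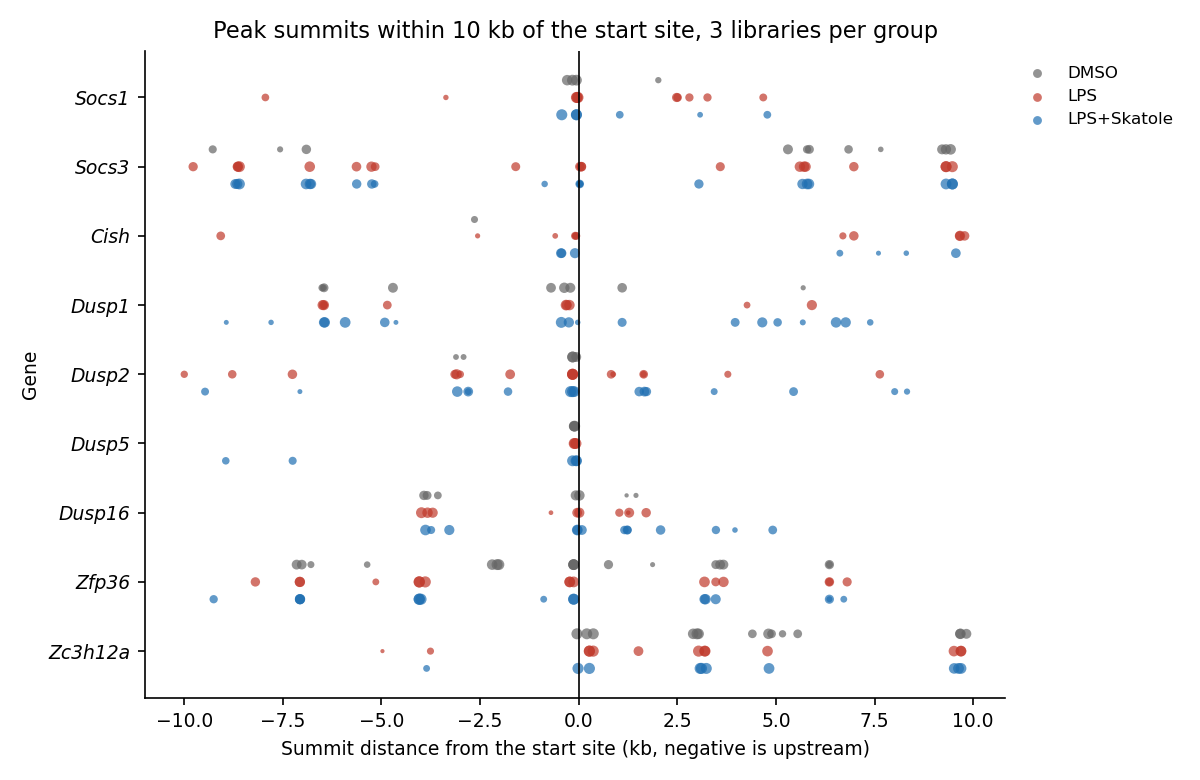
Distance of each peak summit from the start site (horizontal axis, kb, negative is upstream) for the 9 genes with a given start site, with one row of points per group and 3 libraries per row. Point size grows with the percentile of the peak in its list. Points stack at the start site in all groups for Socs1, Dusp1, Dusp2 and Dusp5, and only with LPS or LPS+Skatole for Socs3 and Cish.

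Zfp36, whose product binds AU-rich elements and recruits deadenylases, differed between the groups in the position of its upstream summit. It had 4, 7 and 6 peaks in DMSO, 5, 6 and 5 in LPS and 6, 6 and 4 in LPS+Skatole, so peak number did not separate the groups. In all 9 libraries a peak covered the position 4.0 kb upstream of the start site. In the DMSO libraries the summit of that peak lay at −2023, −2193 and −2070 bp. With LPS it lay at −4038, −3889 and −4044 bp, and with LPS+Skatole at −4043, −3998 and −4041 bp. The upstream summits of LPS and LPS+Skatole span chr7:28383117-28383272, over no annotated gene, between the start of Zfp36 (28379228) and Med29, which begins at 28385247.

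This peak was among the very strongest of the LPS lists, at percentiles 99.2, 98.8 and 99.7, and of the LPS+Skatole lists, at 99.3, 99.9 and 99.4. In DMSO it stood at 93.2, 87.4 and 94.1. Its counts were 86, 110 and 145 in DMSO, 193, 170 and 257 in LPS and 223, 307 and 233 in LPS+Skatole. Relative to the genome background these were 78.9, 78.7 and 107, then 84.1, 76.4 and 110, then 95.3, 136 and 97.3, so the height itself overlapped between DMSO and LPS. The local background moved with the place of the summit, at 6.82 to 14.2 multiples of the genome background under the DMSO summits and 3.31 to 3.50 under the others, and its part in the higher ranks was not tested. A list gives one summit per peak, so the height near −2 kb in the LPS libraries is not known.

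Among the 18 regions of these genes with a peak in all 9 libraries, the Zfp36 region (chr7:28378196-28388499) was 1 whose strongest peak had its summits more than 500 bp apart between groups with no overlap. It was so for LPS against DMSO, where 0.564% of all 13824 shared regions were, and for LPS+Skatole against DMSO, where 0.810% were. For LPS+Skatole against LPS 0 of the 18 were, against 0.448% of all. Here DMSO replicate 2 counts with its start-site summit at −128 bp, as that peak had the higher rank in its list. The call held without any one library, with a stricter q, and with counts thinned to the lowest genome background, which still left lists of 37550 to 56150 peaks.

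**Figure D4:**
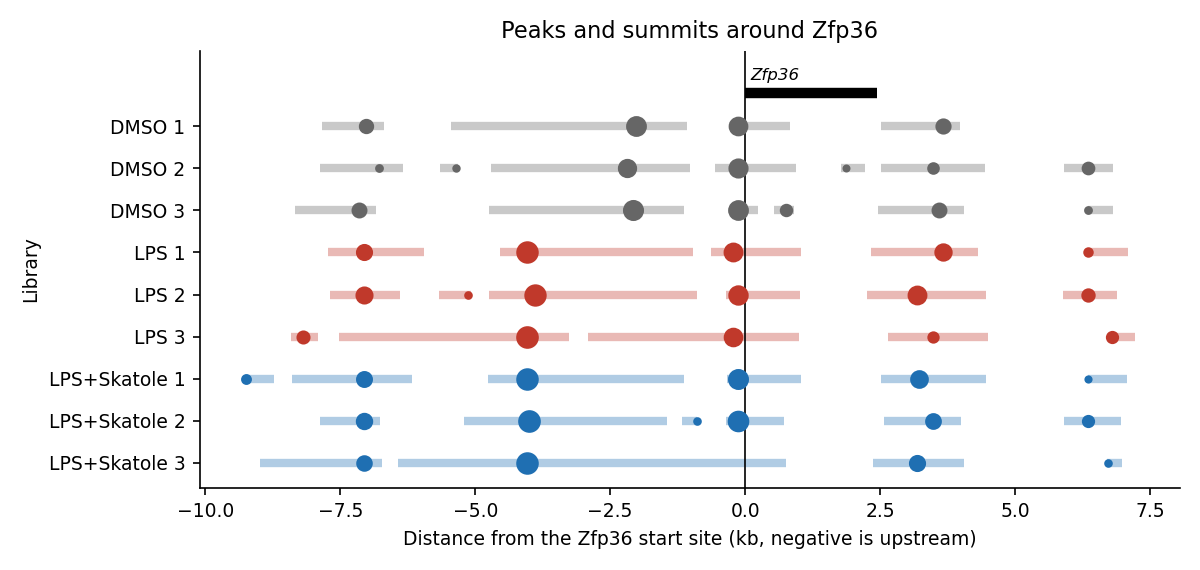
Peaks (bars) and their summits (circles, size by percentile) around Zfp36 in the 9 libraries, against distance from its start site in kb, with the gene drawn as a black bar. The largest upstream circle sits near −2 kb in the 3 DMSO libraries and near −4 kb in the 6 others.

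At the Zfp36 start site itself a peak summit was present in 8 libraries, and LPS+Skatole replicate 3 had 1 long peak over both sites. It had 82, 105 and 117 counts in DMSO, 179, 136 and 180 in LPS and 170 and 191 in LPS+Skatole replicates 1 and 2. Relative to the genome background the means were 78.8 ± 6.31 for DMSO and 72.0 ± 9.43 for LPS (SD, n = 3), with 72.7 and 84.5 for LPS+Skatole. The summits lay at −128 or −129 bp in 6 of the 8 and at −230 and −225 bp in LPS replicates 1 and 3.

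Zc3h12a, an endonuclease that cuts stem loops of cytokine mRNAs, had 6, 5 and 6 peaks in DMSO, 7, 5 and 4 in LPS and 4, 5 and 5 in LPS+Skatole. Its main region (chr4:125121129-125128652) covers the start site and much of the gene and had 76, 119 and 93 counts in DMSO, 190, 165 and 224 in LPS and 229, 175 and 230 in LPS+Skatole. Its strongest peak lay in this region in 8 libraries and in a region 3′ of the gene (chr4:125115696-125116952) in LPS+Skatole replicate 1. The percentile of the strongest peak was 95.7 ± 0.915, 98.2 ± 1.85 and 98.8 ± 0.488 (SD, n = 3). LPS+Skatole and DMSO did not overlap, by rank either, and LPS replicate 2, at 96.0, fell among the DMSO values.

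By the percentile of the strongest peak, LPS stood above DMSO without overlap at 3 genes (Socs1, Socs3 and Zfp36) and below at 0, where 20.0% and 2.40% of the 11870 genes with a peak in all lists did so. Against DMSO, LPS+Skatole stood above at 4 (Socs1, Socs3, Zfp36 and Zc3h12a) and below at 0, with 31.6% and 1.56% over all genes. LPS+Skatole against LPS gave 0 in either direction, with 14.6% and 3.18%. With lists of equal length as above (37551 to 39291 peaks), where list length differed little, LPS stood above DMSO at 2 (Socs1 and Zfp36) and below at 0, against 7.35% and 9.35% of all genes. LPS+Skatole then stood above DMSO at 3 (Socs3, Zfp36 and Zc3h12a) and below at 1 (Dusp16), against 7.53% and 14.3%, and below LPS at 1 (Socs1), against 9.23%. A joint exact permutation test over all 280 divisions of the 9 libraries, one-sided by construction and able to reach p = 0.00357, gave p = 0.0143 for Zfp36, 0.0179 for Socs1 and 0.0357 for Socs3 by percentile in the lists as deposited. For peak number it gave 0.0107 for Cish, 0.025 for Dusp16 and 0.0357 for Dusp2. Of all genes, 19.9% had such a p under 0.05 by percentile and 15.8% by peak number. After Benjamini-Hochberg adjustment over all genes these exact permutation p-values became 0.158, 0.169 and 0.212 by percentile and 0.259 for all 3 by number, and 0 genes of the whole table passed by either measure.

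Gained and lost regions give the same comparisons by place. LPS gained 6 regions over DMSO (2 at Socs3, 3 at Cish and 1 at Dusp16) and lost 0, where 7.61% and 0.316% of the regions with a peak in at least 3 of the 6 libraries did. LPS+Skatole gained 7 over DMSO, 4 of them among those 6 (2 at Socs3, the Cish start site and the one at Dusp16) and the other three at Dusp1, Dusp2 and Dusp5, and lost 0, with 12.7% and 0.234% over all regions. LPS+Skatole against LPS gained 0 and lost 0, with 2.97% and 0.655%. Of the 93 regions of these genes, 42 had a peak in 1 library alone and could not enter such shares, so 93 is not the matching total. A region that falls just under the threshold in a shallow library counts as absent, and with lists of equal length 4 regions were gained in LPS (2 at Socs3, 1 at Cish and 1 at Dusp16) and 2 in LPS+Skatole (the Cish start site and the one in the Dusp2 body) over DMSO, where 5.21% and 7.14% of all regions were gained in that setting. There LPS+Skatole against LPS gained 0 and lost 2 (the Socs3 start site and a Socs1 region), against 1.84% and 1.16% of all regions.

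The 18 shared regions allowed a test of the summit count itself. With limma on median-centred log2 counts, 0 of them passed an adjusted p of 0.05 in any comparison. For LPS against DMSO 1.29% of the 13824 shared regions were called higher and 0.514% lower, for LPS+Skatole against LPS 0.0506% and 0.123%, and for LPS+Skatole against DMSO 3.91% and 4.35%. At an unadjusted p of 0.05, 4, 1 and 0 of the 18 passed in the same order, where 14.3%, 10.8% and 23.5% of all shared regions did. The median log2 difference of the 18 was 0.17, −0.11 and 0.12, against −0.04, −0.04 and −0.09 over all shared regions. For LPS against DMSO 14 of the 18 were positive, against 44.8% of all, and the range was −0.45 to 0.82. These signs depend on the scale: divided by the genome background, 7 of 18 were positive for LPS against DMSO (median −0.03), against 24.3% of all, and 14 of 18 for LPS+Skatole against LPS (median 0.17), against 78.0% of all. Median-centred, the latter had been 8 of 18, against 45.3% of all.

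The 4 regions with the smallest p for LPS against DMSO were at 4 genes. They were a Dusp16 region 3.3 to 4.0 kb upstream of the start site used here but inside the annotated gene (chr6:134795607-134796808, +0.82 ± 0.33, limma adjusted p = 0.22), the farther 3′ Socs3 region described above (+0.61 ± 0.26, adjusted p = 0.25), the Socs1 start site (+0.53 ± 0.23, adjusted p = 0.28) and the main Zc3h12a region (+0.38 ± 0.17, adjusted p = 0.31). The Dusp16 region had 21, 26 and 19 counts in DMSO, 56, 46 and 87 in LPS and 53, 66 and 27 in LPS+Skatole. It was also the one with the smallest p for LPS+Skatole against LPS, at −0.72 ± 0.33 (adjusted p = 0.41). Scaling by the genome background in place of the median put the median of all shared regions at −0.24 when LPS was set against DMSO and at 0.24 when LPS+Skatole was set against LPS.

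**Figure D5:**
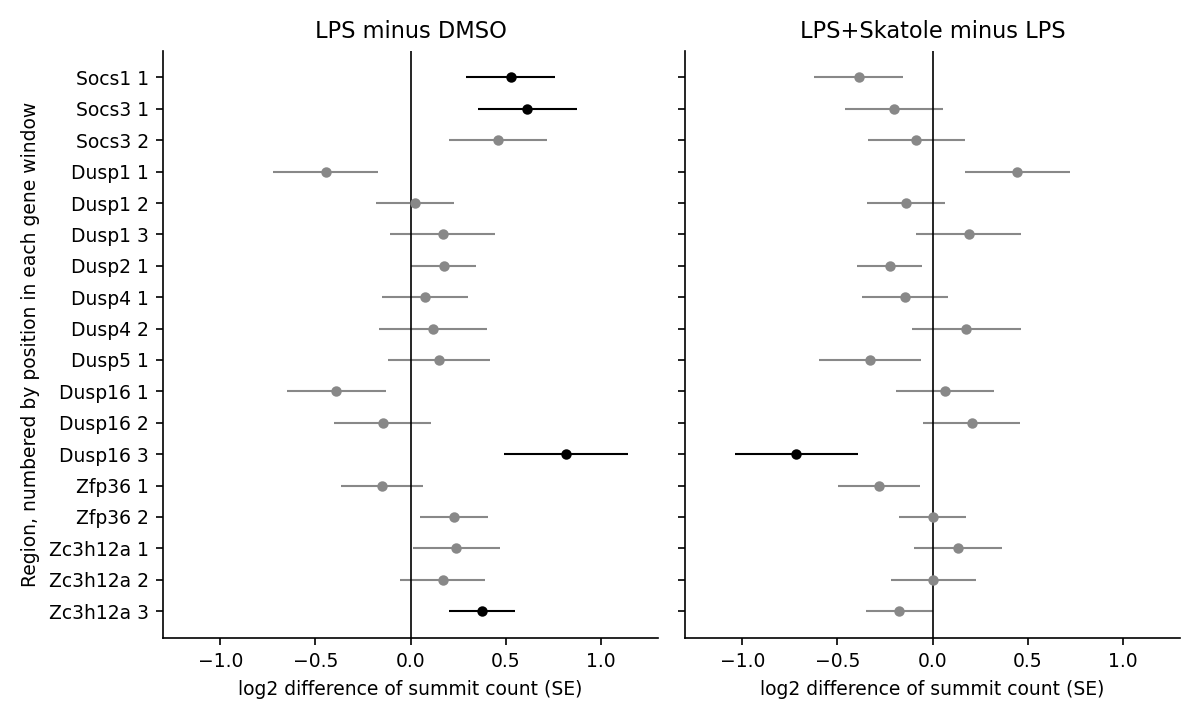
Log2 difference of the summit count (horizontal axis, with SE bars) in LPS minus DMSO (left) and LPS+Skatole minus LPS (right) for the 18 regions with a peak in all 9 libraries, numbered by position in each gene window. Black marks an unadjusted p under 0.05, and no region passed after adjustment.

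Relatives of these genes and the pathways they restrain were read the same way. In peak number, LPS stood above DMSO at 1 of 5 other SOCS genes (Socs5), 0 of 7 other MAP kinase phosphatase genes, 0 of 10 other mRNA-decay genes and 11 of 17 genes of the restrained pathways, and below at 0 of any list, against 12.2% and 0.364% of all genes. The differences were widest at Mapkapk2, a kinase downstream of p38, with 8, 12 and 14 peaks in DMSO and 21, 18 and 17 in LPS, and at the neighbouring transcription factor genes Stat5b, with 5, 4 and 3 against 9, 9 and 12, and Stat5a, with 2, 1 and 1 against 5, 5 and 9. For LPS+Skatole against LPS the counts were 0, 1 (Dusp3), 2 (Zfp36l2 and Zc3h12d) and 1 (Jak1) in the same order, against 9.10% of all genes, and Jak1 had 9, 9 and 10 peaks in LPS and 15, 15 and 14 in LPS+Skatole. Against DMSO, LPS+Skatole stood above in peak number at 2, 3, 2 and 8 genes of these lists and below at 0, against 25.4% and 0.174% of all. By percentile of the strongest peak it stood above DMSO at 1, 5, 3 and 11 and below at 1 (Map3k7), against 31.6% and 1.56%. By that measure LPS stood above DMSO at 1, 1, 1 and 8 and below at 1 (Dusp10), against 20.0% and 2.40%. LPS+Skatole stood above LPS at 0, 1, 1 and 2, against 14.6%. The window grows with the length of a gene, and the lists were not matched for length.

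By limma, 1 shared region of these lists was called for LPS against DMSO, at Il10ra, the interleukin 10 receptor (+1.04 ± 0.22, adjusted p = 0.0086), and 0 for LPS+Skatole against LPS, where over all 13824 shared regions 1.29% were called higher and 0.514% lower in the first and 0.0506% and 0.123% in the second. For LPS+Skatole against DMSO 3 of 17 regions of other mRNA-decay genes were called, all lower, at Zfp36l2 (−1.23 ± 0.22, adjusted p = 0.00059), Zc3h12c (−1.08 ± 0.30, adjusted p = 0.021) and Rc3h1 (−0.78 ± 0.25, adjusted p = 0.048). In the same comparison Zfp36l2 stood higher in peak number and Zc3h12c in the percentile of its strongest peak, without overlap, and Rc3h1 in neither. Of all genes, 25.4% and 31.6% stood higher by these measures. Of 36 regions of the restrained pathways 2 were higher, at Jak2 (+1.40 ± 0.32, adjusted p = 0.0063) and Il10ra (+1.24 ± 0.22, adjusted p = 0.00063), and 1 was lower, at Map3k7 (−0.95 ± 0.25, adjusted p = 0.016). Over all shared regions this comparison called 3.91% higher and 4.35% lower. With genome-background scaling the split over all regions turned to 664 higher and 355 lower, and Rc3h1 no longer passed (−0.71 ± 0.25, limma adjusted p = 0.081), while the other five kept their calls. The 7 regions of other MAP kinase phosphatase genes and 4 of other SOCS genes gave 0 calls.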

How the data were processed

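Peaks of p65 were analysed in 9 CUT&Tag libraries, 3 each of DMSO, LPS and LPS+Skatole. The authors called peaks in each library and deposited 1 list per library, which ends just above a −log10 p of 5. The submitters' notes name the build mm10 and fastp 0.20.1, HISAT2 2.1.0 and StringTie 2.0 without their roles; the peak caller, its control and the treatment of duplicates are not given in the sources used here. Each deposited row holds a fold (a ratio of summit to local background), a −log10 p, a −log10 q, a score and the summit position. The deposited score was not used. The summit count and the local background were recovered from the authors' fold, read as (count + 1)/(background + 1), and −log10 p, read as a Poisson upper tail. They came out whole within 0.02 for at least 99.99% of peaks, and recovery was tested on simulated data. The lowest local background of a list, shared by most of its peaks, is its genome background. For a position where a library had no peak, the highest uncalled count follows from that threshold and the local background. The latter was taken as the median multiple over the libraries with a peak, or as their highest where they differed, and this rests on the finding that peak pairs with summits at most 25 bp apart and background of at least 2 multiples agreed within 10% in 94.3% to 96.6% of cases over the 36 pairs of libraries. Lists hold no total read counts, so counting intervals of whole libraries could not be given, and limits cover counting at the summit alone.

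Peaks of the 9 lists that shared at least 1 bp were merged. Those on other sequences (424 in all) were left out. A region was gained when all 3 libraries of a group and 0 of the reference had a peak in it. Regions in all 9 lists were tested with limma 3.58.1 (R 4.3.3) on log2(count + 0.5), median-centred, with a variance trend and Benjamini-Hochberg adjustment over 13824 regions. With planted log2 changes of 1.5 and 1 in the simulated comparison of LPS+Skatole with LPS over 13824 regions, 86% and 51% of 100 regions each were recovered. Of the 143 calls, 6 were false. All simulated regions shared an assumed spread that was not estimated from these libraries, so recovery in the real data may differ. Gene values were compared with exact permutation tests in SciPy 1.17.1. Genes and start sites came from RefSeq tables of GRCm38.p6, and all listed genes were matched by symbol, 9 of 10 to a promoter sequence. All 10 genes are named, and of each other list up to 3 per comparison and direction, by the largest difference among those not overlapping or called. The genes, lists and windows were chosen with earlier results of these data known. Alternatives (scaling, window, list length, depth, threshold, left-out libraries) are given in the closing section.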

Additional observations from a re-analysis of the deposited data

How the results depend on the processing

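Across all alternatives run, most values were scored the same (254 of 312 for headline results and 229 of 267 for the others). Of the rest, 58 and 37 moved, and 1 of the others reversed. No pairing by replicate number was seen in the deviations from the group means. Same-numbered libraries of different groups correlated at −0.00998 to 0.0142 and differently numbered ones at −0.0123 to 0.00742. Whether same-numbered libraries were prepared together cannot be told from this. With the replicate number as a block, limma called 204, 20 and 1092 shared regions for LPS against DMSO, LPS+Skatole against LPS and LPS+Skatole against DMSO, against 249, 24 and 1142 without it, and 0 of the 18 member regions in either. As a block for peak number, 5 genes had more peaks in all 3 same-numbered differences of LPS against DMSO (20.3% of all genes) and 1 of LPS+Skatole against LPS (15.9%), where the exact sign-flip permutation test cannot go below p = 0.25. These counts in the order above became 635, 194 and 1019 with genome-background scaling (higher and lower 96 and 539, 188 and 6, 664 and 355, against 178 and 71, 7 and 17, 541 and 601), 38, 7 and 198 with the authors' fold, and 76, 0 and 616 without the variance trend in limma. Quantile normalization split them 155 and 27, 16 and 16, 566 and 250. LPS+Skatole against LPS gave 47 with the regions of the pair alone and 13 at −log10 q of at least 5, and LPS+Skatole against DMSO gave 693 with counts thinned to the lowest genome background (lists of 37550 to 56150 peaks). With the regions of the pair and genome-background scaling, added after seeing the data, the first 2 comparisons gave 755 and 756. The authors' fold called 1 member region, that of Zfp36, for LPS against DMSO (+1.38, limma adjusted p = 0.042) and for LPS+Skatole against DMSO (+1.39, adjusted p = 0.020). The summit count of that region was called in neither (+0.23 ± 0.18, limma adjusted p = 0.62, and +0.23 ± 0.18, adjusted p = 0.45). The fold also holds the local background, which moved with the place of the Zfp36 summit, and its part in these calls was not tested.

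Shares of all genes or regions under the same setting follow each count as a percent. For LPS+Skatole against LPS, peak number became higher at 1 gene thinned (Dusp16, 7.11%) and lower at 1 with equal lists (Socs1, 2.32%) and at 1 at the stricter q (Cish, 0.719%). For LPS+Skatole against DMSO it was higher at 3 in the gene body (19.3%), 1 with equal lists (3.59%) and 4 thinned (12.7%), and Dusp4 reversed to −0.667 with equal lists. The best percentile of LPS+Skatole against LPS was higher at 2 in a 3 kb window (Cish and Zfp36, 14.0%) and lower at 1 with equal lists (Socs1, 9.23%), and against DMSO lower at 1 with equal lists (Dusp16, 14.3%). Asking for 2 of 3 libraries, LPS gained 12 of 41 regions over DMSO and LPS+Skatole lost 2 of 50 against LPS, where 19.7% and 4.78% of all regions with a peak in at least 2 of the 6 libraries did. With equal lists LPS+Skatole lost 2 against LPS (the Socs3 start site and a Socs1 region, 1.16%) and gained 2 over DMSO (7.14%), and the stricter q gave 1 lost (Socs1, 0.609%). With regions built from summits within 200 bp, 1 Zfp36 region near −2 kb was lost against DMSO with LPS (0.738%) and with LPS+Skatole (0.799%). The causes were not tested.

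Leaving out 1 library at a time, the members higher in peak number ranged 3 to 4, 0 to 1 (Dusp4 without LPS replicate 1, Dusp1 without LPS replicate 2 or LPS+Skatole replicate 3, Dusp16 and Dusp5 without LPS+Skatole replicates 1 and 2) and 7 to 8 in the order above and the lower ones 0, 0 to 2 and 0 to 1, the 2 (Socs1 and Cish) without LPS replicate 2 and the 1 (Zc3h12a) without DMSO replicate 2. Over all genes the higher share ranged 15.5% to 19.7%, 12.6% to 15.4% and 29.6% to 33.9% and the lower 0.727% to 1.25%, 1.62% to 2.29% and 0.438% to 0.536%, above the shares with all libraries. By percentile higher members ranged 3 to 5, 0 to 2 and 4 to 6 and lower ones 0, 0 to 2 and 0, with 5 without DMSO replicate 3 (adding Dusp2 and Dusp4), the 2 higher (Dusp16 and Zfp36) without LPS replicate 3 and the 2 lower (Socs1 and Cish) without LPS replicate 2, while all genes gave 25.6% to 30.8%, 20.1% to 23.3% and 37.2% to 42.4% higher and 4.29% to 5.62%, 5.25% to 6.81% and 2.73% to 3.62% lower. Gained regions ranged 6 to 9, 0 to 2 and 7 to 8 and lost ones 0, 0 to 2 and 0, the 2 gained (both Dusp1) without LPS replicate 2 and the 2 lost (Socs1 and Cish) without LPS+Skatole replicate 1, while all regions with a peak in at least 2 of the 5 libraries gave 7.29% to 12.1%, 3.35% to 6.47% and 10.7% to 18.0% gained and 0.446% to 1.32%, 0.999% to 2.17% and 0.351% to 0.865% lost. Calls over all shared regions ranged 100 to 179, 9 to 30 and 725 to 781, lowest without LPS replicate 1 in the first 2 comparisons. Depth limits what DMSO can show, since an absent peak there allows the levels given in the report.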
